A study of Mus musculus with 20 samples.

Results

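The expression of 10 genes of disease-associated phagocytes was followed through a set of mouse spinal cord arrays, namely Gpnmb, Trem2, Tyrobp, Spp1, Lpl, Itgax, Cst7, Clec7a, Cd68 and Axl. They were taken by gene symbol and were chosen by their transgenic over wild type ratios at 17 and 80 days, so those ratios are given below as a description, without a test. The platform's annotation gave a probe to 8 of the 10 listed genes, and these 8 had 12 of the 44290 features of the table, where 19087 gene symbols were found. The expression of Spp1 and Cd68 was not analysed here.

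The study compared the spinal cords of female C57BL/6 mice of 2 genotypes. TG mice carry GFAP-IkappaBalpha-dn, a form of IkappaBalpha that acts as a dominant negative inhibitor of NF-kappaB. It is driven by the promoter of Gfap, an astrocyte gene. TG mice came from heterozygous males, and WT mice were their littermates. Both genotypes were studied as naive animals and with experimental autoimmune encephalomyelitis (EAE), an autoimmune attack on central myelin, at 10, 17 and 80 days after its induction (dpi). EAE was induced with 150 ug of the MOG peptide in complete Freund's adjuvant at each injection and 500 ng of pertussis toxin at each dose, which the naive animals' labels do not mention. The labels give an age of 60 days to every sample, whatever its dpi, and the series' text 2 to 4 months. The tissue is whole spinal cord, so that for every gene fewer cells of a type and less RNA per cell cannot be told apart.

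Each of the 20 arrays compared 2 animals directly, 1 labelled with Cy5 and 1 with Cy3. TG was set against WT on 3 arrays of naive animals, 4 at 10 dpi, 3 at 17 dpi and 4 at 80 dpi, and 6 further arrays set 2 times of 1 genotype against each other, 1 array for each pair of times. The titles name 23 animals, 12 TG and 11 WT, 3 in each group except WT at 17 dpi with 2. Each array had between 43710 and 43894 features with a value, and the SD of the log ratios over features lay between 0.286 and 0.73 on all arrays but 1. TG animal 3 over WT animal 4, at 17 dpi, gave the widest array, with an SD of 1.07.

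The direction of the deposited ratios was not stated. They are read here as TG over WT, EAE over naive, WT at 17 over 80 dpi and TG at 80 over 17 dpi on every array, a direction that is not settled. Its basis lies in the members' own values on dye-swapped arrays that share an animal. Skeletal muscle genes, which lie outside the members, also bear on it, and their values are given with the lists. At 80 dpi all 4 deposited Gpnmb ratios were negative, with TG in Cy5 on 1 array and in Cy3 on 3. TG animal 26 was on 2 of them, in Cy3 at -4.35 over WT animal 13 and in Cy5 at -3.06 over WT animal 15. Were each value the Cy5 animal over the Cy3 animal, as the titles order them, this 1 animal would lie far above 1 WT animal and far below another. Gpnmb was chosen by these same ratios, so this basis is not independent of the choice. Over 42899 features outside the members and the lists used below, these 2 arrays of TG animal 26 correlated at -0.33 as deposited, and the dye-swapped pairs of naive arrays at -0.73 and -0.79. A dye effect would give a negative correlation under the reading used and a genotype difference would give one under title order, and the 2 cannot be told apart from these correlations. The reading of the arrays with naive animals was likewise chosen with phagocyte genes in view. All signs below hold for the reading used, and the values in title order are given with the counts and in the closing section.

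Microglia and the macrophages that enter an inflamed cord clear myelin debris and dying cells. TREM2 is a surface receptor for lipids and lipoproteins that signals through the adaptor TYROBP (DAP12), which carries an activating tyrosine motif and recruits the kinase SYK. Cells that signal through this receptor take on a programme of lipid metabolism, lysosomal digestion and adhesion, first described in mouse models of neurodegeneration, to which all 10 genes belong. Gpnmb encodes a transmembrane glycoprotein of phagosomes and melanosomes, Itgax the integrin subunit CD11c, Clec7a the beta-glucan receptor Dectin-1, Axl a receptor tyrosine kinase for apoptotic cells, Lpl the lipase that frees fatty acids from triglycerides, and Cst7 cystatin F, an inhibitor of lysosomal cysteine proteases.

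The sequences around the start sites of Gpnmb and Trem2 are shown because the 2 genes had nearly the same pattern over the arrays, and stretches from Cst7 and Itgax because the same letters occurred there. The RefSeq promoter table (GRCm38.p6, 250 bases before the start site and 50 after) held 8 of the 10 listed genes, with 10 windows, and these include Spp1 and Cd68 and lack Tyrobp and Lpl. Capitals mark TGANTCA, a loosened form, with any base in the middle, of the AP-1 site TGACTCA or TGAGTCA. The stretches of Gpnmb and Itgax have the site itself, and those of Trem2 (TGAATCA) and Cst7 (TGATTCA) match the loosened form only. Each line runs 5′ to 3′ on the plus strand.
Gpnmb, chr6:49036268-49036567: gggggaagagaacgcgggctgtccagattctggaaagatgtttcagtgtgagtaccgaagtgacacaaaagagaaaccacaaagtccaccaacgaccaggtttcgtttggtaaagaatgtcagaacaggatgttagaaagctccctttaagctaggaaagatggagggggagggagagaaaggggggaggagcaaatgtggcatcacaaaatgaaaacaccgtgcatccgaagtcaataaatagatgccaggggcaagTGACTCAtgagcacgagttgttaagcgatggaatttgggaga
Trem2, chr17:48346151-48346450: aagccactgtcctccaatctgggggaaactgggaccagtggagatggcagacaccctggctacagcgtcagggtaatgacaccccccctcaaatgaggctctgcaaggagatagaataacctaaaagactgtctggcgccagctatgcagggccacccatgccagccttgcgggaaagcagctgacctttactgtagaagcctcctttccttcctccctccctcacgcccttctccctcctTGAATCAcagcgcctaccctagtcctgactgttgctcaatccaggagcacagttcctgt
Cst7, chr2:150570392-150570432: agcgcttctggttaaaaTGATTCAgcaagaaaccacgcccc
Itgax, chr7:128129477-128129517: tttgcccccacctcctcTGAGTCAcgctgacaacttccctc

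On either strand, the loosened TGANTCA was found in the windows of 5 of these 8 genes, Cd68, Cst7, Gpnmb, Itgax and Trem2. It was found in 8.97% of the 27025 genes of the table. The PU.1 core GAGGAA, the letters of the main myeloid transcription factor, was found in 5 of the 8, Axl, Cd68, Clec7a, Spp1 and Trem2, and in 31.3% of all genes. The longer form GAGGAAGT, which contains it, was found in 1, Spp1, and in 3.69% of all genes. The E-box CACGTG was in none of the 10 windows and in 8.09% of all genes. The M-box CATGTG, bound by factors of the MITF family, was likewise in none and in 15.9% of all genes. The kappaB motif, bound by NF-kappaB factors, was in none of the 10 windows and in 1.89% of all genes. A match is a description of letters in these windows, and no match says nothing about a factor.

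Gpnmb had the lowest TG over WT ratios of the 8 genes, 9.49-fold lower in TG than in WT at 17 dpi and 17.9-fold lower at 80 dpi. On the 3 naive arrays its log2 ratios were 0.27, -0.19 and 0.19. At 10 dpi they were 0.07, -1.64, -0.18 and 0.32, so that 1 array, TG animal 1-3 over WT animal 10-4, was low and the other 3 lay around 0. At 17 dpi they were -2.57, -2.95 and -4.49, and at 80 dpi -4.35, -4.20, -3.06 and -4.75. None of the 7 arrays of 17 and 80 dpi came near the naive values. The fitted log2 differences, which use all 20 arrays and a dye term, were -3.25 ± 0.30 at 17 dpi and -4.16 ± 0.26 at 80 dpi (± the standard error throughout).

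**Figure D1:**
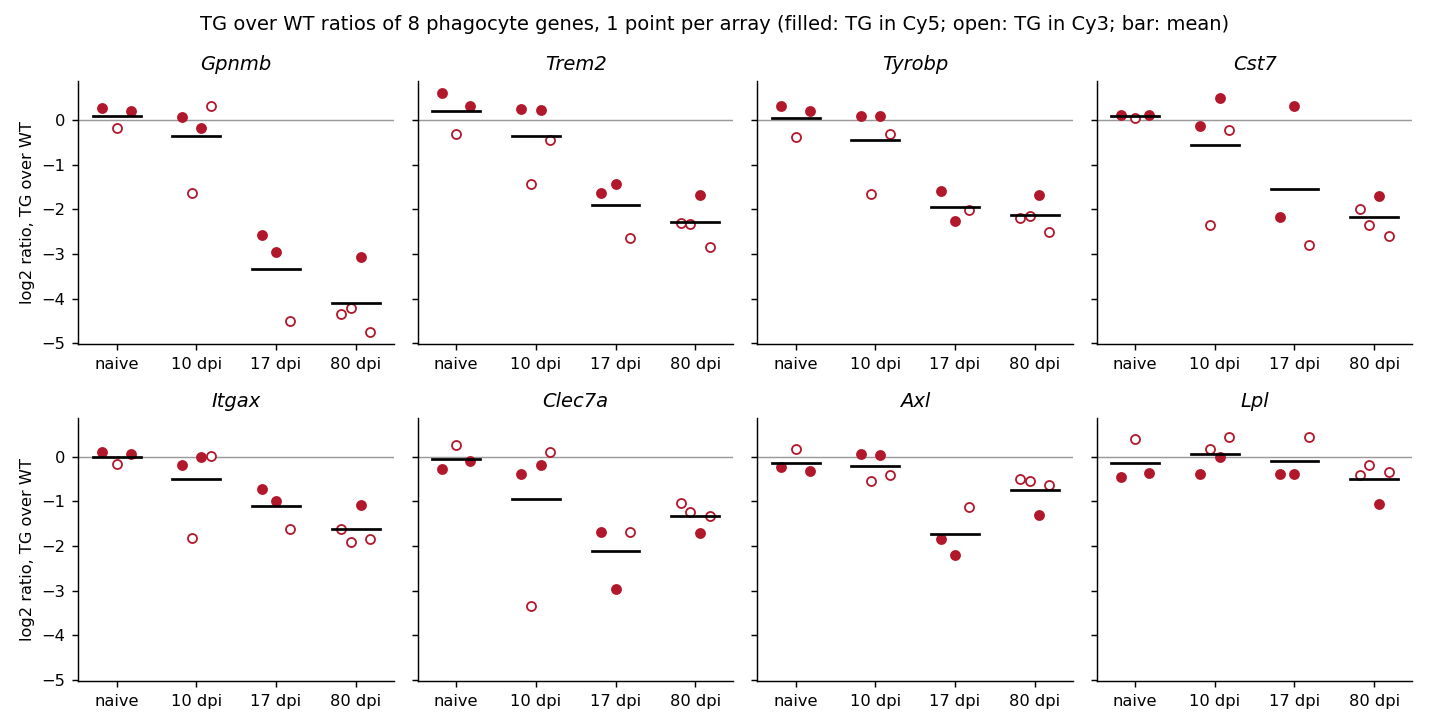
Log2 ratio of TG over WT (vertical axis) for 8 genes in naive animals and at 10, 17 and 80 dpi, 1 point per array, filled where TG was labelled with Cy5 and open where it was labelled with Cy3, with the mean as a bar. Gpnmb lies between -4.75 and -2.57 on the 7 arrays of 17 and 80 dpi, and at 10 dpi 1 array is low in 6 of the 8 genes.

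A second Gpnmb probe differed from the first. Its ratios were -0.30, 1.68 and -0.86 at 17 dpi, the value of 1.68 coming from the array with the widest spread, and -0.87, -0.44, -0.25 and -0.72 at 80 dpi. Its root mean square over the 20 arrays was 0.56, against 2.63 for the first probe, and the 2 probes had the same sign on 12 of 20 arrays. Both carry the same transcript accession in the annotation, and which exons they cover is not given in the sources used here. Levels of different probes cannot be compared on these arrays, and the Gpnmb values elsewhere in the text are those of the first probe.

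Trem2, the receptor, was lower in TG on all 7 arrays of 17 and 80 dpi. The naive arrays spread on both sides of 0, at 0.60, -0.31 and 0.30, and at 10 dpi the ratios were 0.24, -1.44, 0.21 and -0.46. At 17 dpi they were -1.64, -1.44 and -2.64, and at 80 dpi -2.30, -2.34, -1.69 and -2.84. In the fit Trem2 was 3.49-fold lower in TG at 17 dpi (-1.80 ± 0.20) and 5-fold lower at 80 dpi (-2.32 ± 0.18). The second Trem2 probe followed the first with smaller values, -1.31 ± 0.16 at 17 dpi and -1.74 ± 0.14 at 80 dpi, and had the same sign on 17 of 20 arrays.

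Tyrobp, the adaptor, stayed close to its receptor. In naive animals it stood at 0.31, -0.38 and 0.19, and at 10 dpi at 0.08, -1.65, 0.09 and -0.32, where again only 1 array was low. Its ratios were -1.59, -2.27 and -2.01 at 17 dpi and -2.20, -2.14, -1.68 and -2.51 at 80 dpi, with fitted differences of -1.84 ± 0.22 and -2.16 ± 0.20. For Trem2 and Tyrobp alike the array of TG animal 27 was the lowest of the 4 at 80 dpi and that with TG animal 26 in Cy5 the highest.

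Itgax, the CD11c subunit found on dendritic cells and activated microglia, was 2.28-fold lower in TG at 17 dpi and 3.10-fold lower at 80 dpi. Its ratios were 0.10, -0.17 and 0.05 in naive animals, -0.73, -0.99 and -1.63 at 17 dpi, and -1.63, -1.92, -1.08 and -1.85 at 80 dpi. The 7 arrays of these EAE times thus lay below all naive ones. A second probe with the symbol Itgax, annotated to the cDNA AK089167, stayed between -0.25 and 0.46 on all 20 arrays, with fitted differences of 0.15 ± 0.09 at 17 dpi and -0.01 ± 0.08 at 80 dpi. What part of the gene that cDNA covers was not examined.

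Cst7 and Clec7a were the members with the largest standard errors. Cst7, the protease inhibitor, stood at 0.10, 0.04 and 0.11 in naive animals, at -2.18, 0.32 and -2.79 at 17 dpi and at -2.0, -2.36, -1.71 and -2.59 at 80 dpi. The value of 0.32 came from the wide array of TG animal 3, and leaving that animal out gave a fitted difference of -2.55 in place of -1.88 ± 0.42 at 17 dpi. At 80 dpi the fit gave -2.11 ± 0.37. Clec7a, the Dectin-1 receptor, had ratios of -0.28, 0.25 and -0.11 in naive animals, of -1.68, -2.97 and -1.68 at 17 dpi and of -1.03, -1.25, -1.72 and -1.32 at 80 dpi. Its fitted difference was -2.27 ± 0.46 at 17 dpi and -1.37 ± 0.41 at 80 dpi. The 80 dpi value was -1.45 with scaled arrays, -1.37 with array weights and -1.46 with the 80 dpi arrays alone.

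Axl and Lpl followed other courses. Axl, a receptor for apoptotic cells bridged by GAS6, had ratios of -1.85, -2.20 and -1.13 at 17 dpi and of -0.50, -0.55, -1.30 and -0.64 at 80 dpi, with fitted differences of -1.54 ± 0.17 and -0.98 ± 0.15. As deposited its arrays parted by dye: with TG in Cy5 the values were -1.85, -2.20 and -1.30, and with TG in Cy3 between -1.13 and -0.50. Dye and time were not balanced over these arrays. With the fitted dye term taken off, Axl stood at -1.60, -1.95 and -1.38 at 17 dpi and between -1.05 and -0.75 at 80 dpi. Lpl, the lipase, did not separate the genotypes at 17 dpi, where its ratios were -0.38, -0.38 and 0.44 and the fit gave 0.03 ± 0.07. At 80 dpi it stood at -0.41, -0.19, -1.07 and -0.35, and the fit gave -0.71 ± 0.06. In naive animals Lpl stood at -0.46, 0.40 and -0.36. Both in naive animals and at 17 dpi it was positive only where TG was in Cy3, and its fitted dye term was -0.37, the largest in size of the 8. The second Lpl probe gave 0.23 ± 0.13 at 17 dpi and -0.41 ± 0.11 at 80 dpi.

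Counted at an adjusted p under 0.05 in limma, 7 of the 8 genes were lower in TG at 17 dpi, all but Lpl, against 8.51% of all features lower and 4.65% higher. At 80 dpi 7 of the 8 were lower, all but Clec7a, against 1.47% of all features lower and 0.231% higher. The median of the 8 log2 differences was -1.82 at 17 dpi and -1.87 at 80 dpi, with medians over all features of 0.04 and 0.01. The second probes of Gpnmb, Lpl and Itgax were called at neither time, and that of Trem2 at both. Since these values chose the genes, nothing is read from the counts or calls. Without TG animal 3, whose array had the widest spread, 7 were still called at 17 dpi, with a median of -1.71. With the 3 arrays of 17 dpi fitted alone in limma, 0 were called. In title order 0 were called at 17 dpi, where 0% of all features were called, and 0 at 80 dpi, where 11.9% of all features were called lower and 10.9% higher, and the medians were 0.39 and 1.16.

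Naive TG and WT cords were compared to see whether the genotypes differed before EAE. The 8 fitted differences lay between -0.04 for Tyrobp and 0.34 for Cst7, with a median of 0.09. In limma 0 of the 8 passed, every member probe having an adjusted p of 1, and 0% of all features passed in either direction. Of 43786 features 467 had an unadjusted p under 0.05, fewer than that threshold alone would give. The spread was pooled over all groups, and the naive arrays had SDs of 0.303 to 0.36, against up to 1.07 at 17 dpi. These p-values are thus not fitted to the naive arrays, and a missed threshold does not show that the genotypes were alike before EAE. At 10 dpi 7 of the 8 differences were negative, between -0.96 ± 0.45 for Clec7a and 0.05 ± 0.07 for Lpl, with a median of -0.41. None of the 8 passed in limma at 10 dpi, where the lowest adjusted p was 0.704, for Itgax at -0.50 ± 0.22. Of all features 0.0137% were called lower and 0.0137% higher at 10 dpi, and 2882 had an unadjusted p under 0.05. These results hold for the reading used. In title order 0 of the 8 passed in naive animals and at 10 dpi, with medians of -0.58 and 0.47. Of all features 5.12% were then called lower and 3.57% higher in naive animals, and 5.97% and 1.98% at 10 dpi.

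The 10 dpi values rested on 1 array. On TG animal 1-3 over WT animal 10-4 the ratios were -3.35 for Clec7a, -2.36 for Cst7, -1.83 for Itgax, -1.65 for Tyrobp, -1.64 for Gpnmb and -1.44 for Trem2. On the 3 other arrays of that time the 8 genes lay between -0.46 for Trem2 and 0.48 for Cst7. The macrophage and monocyte markers, 13 measured genes, had a median of -1.19 on that array and of -0.45 to 0.00 on the others, and their part in the members' values was not tested. Without TG animal 1-3 the median of the 8 members was -0.05, in place of -0.41. Neither animal of that array was on a second array, so which of the 2 departed from its group cannot be told apart. The 4 arrays of 10 dpi also had a dye pattern of their own, which correlated at 0.67 to 0.78 over features with the pattern common to them and at -0.19 to 0.21 with that of the naive arrays, and no other array links the 10 dpi animals to the rest, so their direction is less sure than that of the others. The difference between the 10 dpi and naive contrasts was between -1.13 ± 0.64 for Clec7a and 0.06 ± 0.10 for Lpl, and 0 of the 8 genes and 0 of all features passed in limma, the member probes all having an adjusted p of 1, with 2035 features at an unadjusted p under 0.05.

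In WT animals the members were higher in EAE than in naive cords. At 17 dpi over naive the fit gave 3.12 ± 0.60 for Clec7a, 2.91 ± 0.39 for Gpnmb, 2.76 ± 0.29 for Tyrobp, 2.75 ± 0.54 for Cst7, 2.19 ± 0.26 for Trem2, 1.75 ± 0.30 for Itgax, 1.43 ± 0.22 for Axl and 0.23 ± 0.09 for Lpl. At 80 dpi Gpnmb stood at 4.54 ± 0.38 over naive, a 23.2-fold difference, Trem2 at 2.85 ± 0.26, Tyrobp at 2.67 ± 0.29, Cst7 at 2.63 ± 0.54, Itgax at 1.93 ± 0.29, Clec7a at 1.93 ± 0.59, Axl at 1.23 ± 0.22 and Lpl at 0.92 ± 0.09. Clec7a thus had the largest value at 17 dpi, within 1 standard error of Gpnmb, Tyrobp and Cst7, and Gpnmb at 80 dpi. The direct arrays, WT animal 1 at 17 dpi over naive WT animal 2 and WT animal 14 at 80 dpi over naive WT animal 4, read 2.88 and 4.28 for Gpnmb, 1.78 and 2.76 for Trem2, 1.97 and 2.98 for Tyrobp, 4.35 and 1.41 for Clec7a, and 0.64 and 1.28 for Lpl.

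At an adjusted p under 0.05, 7 of the 8 genes were higher in WT at 17 dpi than in naive WT, all but Lpl, against 8.42% of all features higher and 7.82% lower. At 80 dpi 7 of the 8 were higher than in naive WT, all but Clec7a, against 0.98% of all features higher and 0.11% lower. In title order 0 were called at either time, where 0% of all features were called, with medians of -1.32 and -1.82. These arrays share WT animals with the TG over WT arrays that chose the genes, so the counts are descriptions. They depended on few animals: at 17 dpi the count was 3 without naive WT animal 2 and 4 without WT animal 1 of 17 dpi, and at 80 dpi it was 4 without WT animal 1 of 17 dpi, without WT animal 14 of 80 dpi or without naive WT animal 4. The medians moved less, lying between 2.12 and 2.61 at 17 dpi and between 1.95 and 2.40 at 80 dpi over all animals left out in turn.

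In TG animals these genes lay near their naive level. At 17 dpi over naive the 8 fitted differences lay between -0.43 ± 0.39 for Gpnmb and 0.96 ± 0.29 for Tyrobp, with Trem2 at 0.26 ± 0.26, and 1 of the 8 passed, Tyrobp, against 6.89% of all features higher and 9.88% lower. At 80 dpi they lay between 0.19 ± 0.54 for Cst7 and 0.55 ± 0.29 for Tyrobp, with Gpnmb at 0.28 ± 0.38 and Trem2 at 0.39 ± 0.26, and 0 of the 8 passed in limma, against 0.0183% of all features higher and 0.00228% lower, with 639 features at an unadjusted p under 0.05. With a separate dye term for the 10 dpi arrays Tyrobp lost its call at 17 dpi, at 0.93, and Lpl gained one, at 0.28. The count at 17 dpi was 0 without any 1 of 13 animals (TG animals 1 and 7 of 17 dpi, each TG and WT animal of 80 dpi, each naive TG animal and naive WT animals 3 and 4) and without a dye term, and it was 2 without TG animal 3 of 17 dpi, TG animals 1-3 and 1-5 or WT animals 10-4 and 4-3 of 10 dpi. The direct arrays, TG animal 1 at 17 dpi over naive TG animal 5 and TG animal 27 at 80 dpi over naive TG animal 8, read -0.05 and 0.18 for Gpnmb, 0.65 and 0.50 for Trem2, and 1.29 and 0.70 for Tyrobp. A missed threshold does not show that TG cords were unchanged, and Cst7 and Clec7a had standard errors of 0.54 to 0.60 there. The 639 features at 80 dpi were also fewer than that p threshold alone would give among 43786.

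**Figure D2:**
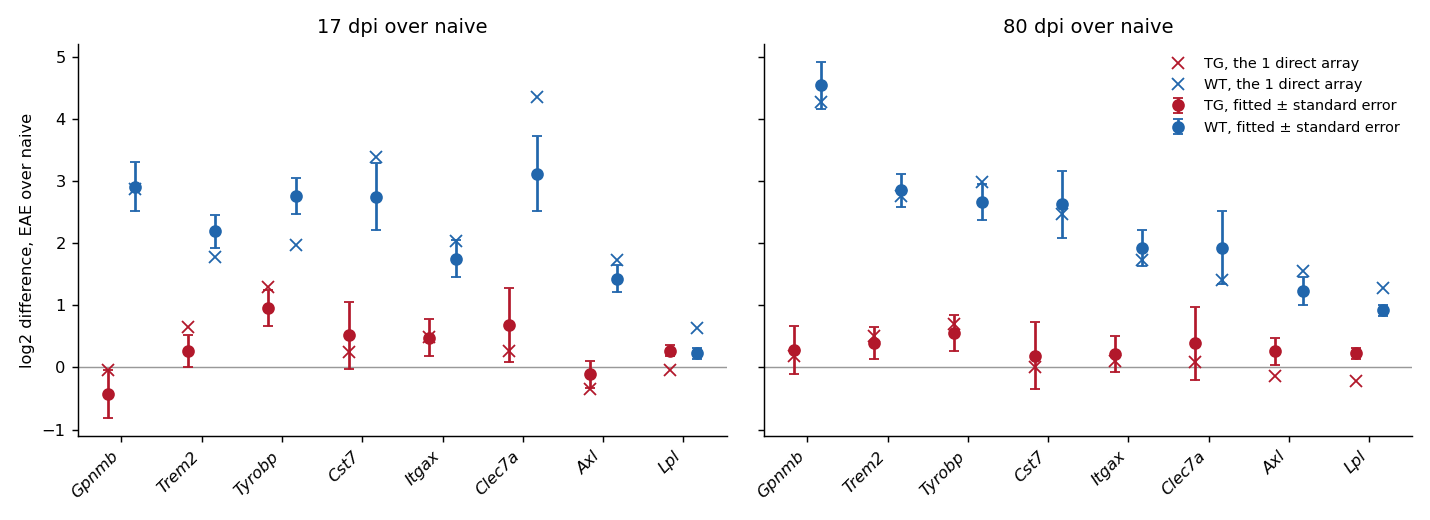
Fitted log2 difference of EAE over naive cords (points, with 1 standard error) in TG (red) and WT (blue) animals at 17 dpi (left) and 80 dpi (right), with the value of the only direct array of each pair as a cross. Gpnmb stands at -0.43 in TG and 2.91 in WT at 17 dpi, and at 0.28 in TG and 4.54 in WT at 80 dpi.

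Between the 2 EAE times the members parted. In WT, Gpnmb at 80 dpi exceeded its 17 dpi level by 1.63 ± 0.38 and Lpl by 0.70 ± 0.09, while Clec7a differed by -1.19 ± 0.59 and Trem2 by 0.66 ± 0.26. Only 2 genes were called higher at 80 than at 17 dpi, Gpnmb and Lpl, and 0 lower, against 3.88% of all features higher and 4.05% lower. The direct array, WT animal 1 at 17 dpi over WT animal 13 at 80 dpi, read -2.16 for Gpnmb, -1.15 for Lpl, -0.87 for Trem2, 0.26 for Tyrobp and 0.52 for Clec7a. Without WT animal 1 of 17 dpi 0 were called, and 1 was called without WT animal 13 or 14 of 80 dpi, without naive WT animal 2 or 4, without a dye term, or with a separate dye term for the 10 dpi arrays. In TG the 80 over 17 dpi differences lay between -0.41 ± 0.29 for Tyrobp and 0.72 ± 0.38 for Gpnmb, and none passed, against 6.65% of all features higher and 4.12% lower.

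The TG over WT difference at 80 dpi was also set against that at 17 dpi. At 80 minus 17 dpi it stood at -0.91 ± 0.37 for Gpnmb, -0.73 ± 0.09 for Lpl and -0.52 ± 0.25 for Trem2, and at 0.90 ± 0.57 for Clec7a and 0.57 ± 0.21 for Axl. By these values Gpnmb lay further below WT at 80 than at 17 dpi, Clec7a and Axl less far, and Lpl near WT at 17 dpi and below it at 80 dpi. Both contrasts chose the genes, and the differences are descriptions without a test.

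Likeness between genes was measured as an uncentred correlation of the deposited ratios over the 20 arrays, which is the same whichever way an array is read. Arrays share animals, so it is a description with no p. Gpnmb and Trem2 had 0.98, Trem2 and Tyrobp 0.96, Trem2 and Itgax 0.96, and Gpnmb and Tyrobp 0.92. The receptor and its adaptor had the same sign on 19 of 20 arrays. Clec7a and Axl were nearer to each other, at 0.85, than to Gpnmb, at 0.74 and 0.80, and Lpl stood apart, at 0.42 with Clec7a to 0.61 with Axl.

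**Figure D3:**
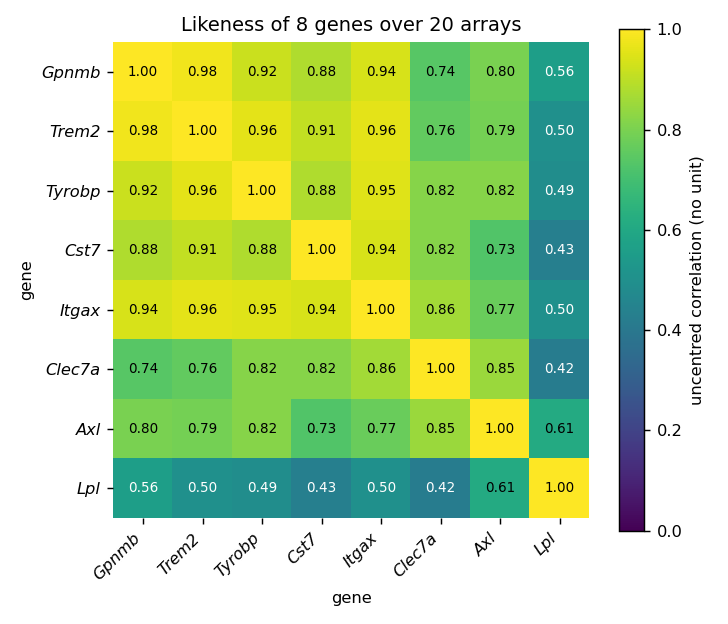
Uncentred correlation (no unit) of the deposited log ratios of 8 genes over 20 arrays, each gene against each. Gpnmb, Trem2, Tyrobp, Itgax and Cst7 lie at 0.88 or above with one another, and Lpl at 0.61 or below with all others.

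Among the 19018 genes ranked, the 5 outside the list with ratios most like those of Gpnmb were Abca1 (0.980), Ctsd (0.976), Ctsa (0.965), Hexa (0.961) and Blnk (0.960). Abca1 exports cholesterol from the cell, and Ctsd, Ctsa and Hexa encode lysosomal enzymes. Nearest to Trem2 were Ctsd (0.978), the integrin subunit Itgb5 (0.970), the lysozyme gene Lyz2 (0.964), the cathepsin gene Ctsz (0.961) and Hexa (0.961). All 8 of these genes were lower in TG on every array of 17 and 80 dpi. They were picked for likeness over these same arrays, so this follows from the choice. The values below are descriptions. Ctsd lay between -1.97 and -1.07 on the 3 arrays of 17 dpi and between -2.89 and -1.54 on the 4 of 80 dpi. Abca1 lay between -1.92 and -0.94 at 17 dpi and between -2.26 and -1.63 at 80 dpi, and its fitted differences were -1.42 ± 0.14 and -1.94 ± 0.13.

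One difference could be read by 2 routes, which checks how far the arrays add up. The 80 dpi array of TG animal 27 over WT animal 14 gives it directly, and 3 other arrays link the same animals through naive TG animal 8 and naive WT animal 4. For Gpnmb the direct array read -4.75 and the sum over the other route -3.90. For Trem2 the values were -2.84 and -1.97, for Tyrobp -2.51 and -2.09, for Cst7 -2.59 and -2.36, for Itgax -1.85 and -1.58, and for Clec7a -1.32 and -1.45. The 2 routes parted most for Lpl, at -0.35 and -1.86, and Axl, at -0.64 and -2.02. Over all features the difference between the routes had an SD of 0.96, and the members' median absolute difference was 0.63. The direct values had an SD of 0.37 over all features and the sums over the other route 0.70. After the dye term was taken off, the routes drew together for Lpl, at -0.72 directly and -0.76 by the other route, Axl, at -0.89 and -1.27, Gpnmb, at -4.46 and -4.77, and Trem2, at -2.51 and -2.94. They drew apart for Cst7, at -2.28 and -3.28, Tyrobp, at -2.27 and -2.81, Itgax, at -1.67 and -2.12, and Clec7a, at -1.40 and -1.20. The dye term was fitted with these arrays included. A longer loop of 8 arrays would sum to 0 if the arrays added up. As deposited its sums lay between -1.87 for Tyrobp and 3.43 for Clec7a, with Lpl at 3.16 and Axl at 3.13. Over all features the SD of this sum was 1.97. With the dye term taken off, the members' sums lay between 0.03 for Tyrobp and 2.76 for Clec7a, with Cst7 at 2.59.

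**Figure D4:**
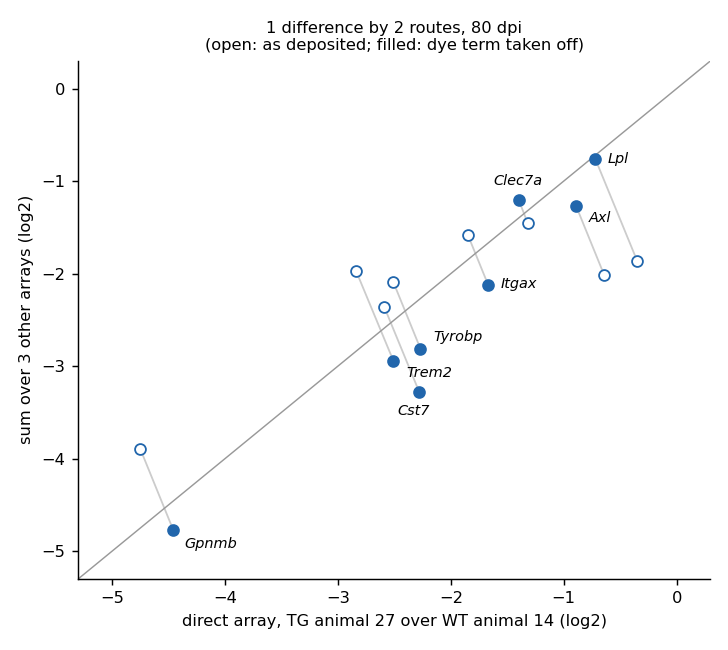
Log2 ratio of TG animal 27 over WT animal 14 at 80 dpi, from the direct array (horizontal axis) and as the sum over 3 other arrays (vertical axis), for 8 genes, as deposited (open) and with the fitted dye term taken off (filled), each gene's 2 points joined by a grey line. The diagonal marks equal values, and Gpnmb stands lowest by both routes, at -4.75 and -3.90 as deposited.

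The genes around the receptor were examined through lists, and a gene was called at an adjusted p under 0.05 as above. Of all features 8.51% were called lower in TG over WT at 17 dpi and 1.47% at 80 dpi, and 4.65% and 0.231% higher. These shares stand beside every list count of TG over WT below. They count every feature tested, with or without a symbol. A list gene with several probes counts by the probe with most values and then the highest root mean square ratio. Shares and list counts are thus not drawn alike, which can raise the list counts, and the same holds for the counts of members. The counts are for the reading used. In title order 0 genes of the 19 lists were called in TG over WT at 17 dpi and in WT 17 or 80 dpi over naive, and at 80 dpi in TG over WT 9 were called lower and 7 higher. The medians of the other disease-associated genes were then -0.02 and 0.37 in TG over WT at 17 and 80 dpi, and those of the macrophage and monocyte markers -0.05 and 0.36. Of 12 measured genes of TREM2 and TYROBP signalling, 7 were lower in TG at 17 dpi and 3 at 80 dpi, Apoe, Vav1 and Ptpn6, with 0 higher at both times and list medians of -0.67 and -0.35. Syk, the kinase recruited by TYROBP, was called at 17 dpi, at -0.65 ± 0.14, and stood at -0.28 ± 0.13 at 80 dpi. Hcst, the adaptor DAP10, was called at 17 dpi, at -1.20 ± 0.26. Apoe, a lipoprotein that binds TREM2, stood at -0.70 ± 0.23 at 17 dpi, where it was not called, and was called at 80 dpi, at -1.32 ± 0.21. In WT over naive 6 of the 12 were higher at 17 dpi and 2 at 80 dpi, where 8.42% and 0.98% of all features were called higher.

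Of 29 measured other genes of the disease-associated programme, 18 were lower in TG at 17 dpi and 17 at 80 dpi, with 0 higher and medians of -1.15 and -1.12. In WT over naive 21 were higher at 17 dpi, against 8.42% of all features, and 13 at 80 dpi, against 0.98%, with 1 lower at 17 dpi, Timp2. Lgals3, the lectin galectin-3, stood at -1.81 ± 0.21 in TG over WT at 17 dpi and at -1.21 ± 0.19 at 80 dpi. Ctsb, a lysosomal protease, stood at -1.26 ± 0.16 and -1.35 ± 0.14. Igf1, a growth factor, stood at 0.14 ± 0.08 at 17 dpi and was called at 80 dpi, at -1.12 ± 0.07. Lpl showed the like pair of values, 0.03 and -0.71, and the difference between the 2 times was not tested for either.

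Of 14 measured genes of lipid uptake, export and sensing, 6 were lower in TG at 17 dpi and 3 at 80 dpi, Abca1, Abcg1 and Plin2. Cd36, a fatty acid and scavenger receptor, was called at 17 dpi, at -1.42 ± 0.32, and stood at -0.05 ± 0.29 at 80 dpi. The cholesterol exporter Abcg1 stood at -0.69 ± 0.08 and -0.70 ± 0.07. Gpihbp1, which anchors lipoprotein lipase to capillary walls, was called at neither time, at -0.06 ± 0.07 and -0.02 ± 0.06. Of 12 measured genes of lysosome membrane, proton pump and regulators, 6 were lower at 17 dpi, among them Lamp1 at -0.71 ± 0.13 and Lamp2 at -1.64 ± 0.17, and 2 at 80 dpi, Gusb and Hexa. Tfeb, a transcription factor of lysosomal genes, was called at neither time, at 0.20 ± 0.08 and -0.06 ± 0.07.

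Of the 4 genes listed with Axl as its family and ligands, Mertk and Pros1 were lower in TG at both times and Tyro3 and Gas6 at neither. Mertk, a receptor for apoptotic cells on macrophages, stood at -1.66 ± 0.18 at 17 dpi and -1.12 ± 0.16 at 80 dpi, and its ligand gene Pros1 at -0.86 ± 0.13 and -0.77 ± 0.12. Of 11 measured receptors and integrin partners of osteopontin and GPNMB, 3 were lower at 17 dpi, Cd44, Itgb2 and Itgb5, and 2 at 80 dpi, Cd44 and Itgb5. Itgb2, which pairs with CD11c, stood at -1.68 ± 0.19 at 17 dpi and -0.67 ± 0.17 at 80 dpi. Itgam, the CD11b subunit, was called at neither time, at -0.55 ± 0.34 and -0.69 ± 0.31.

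**Figure D5:**
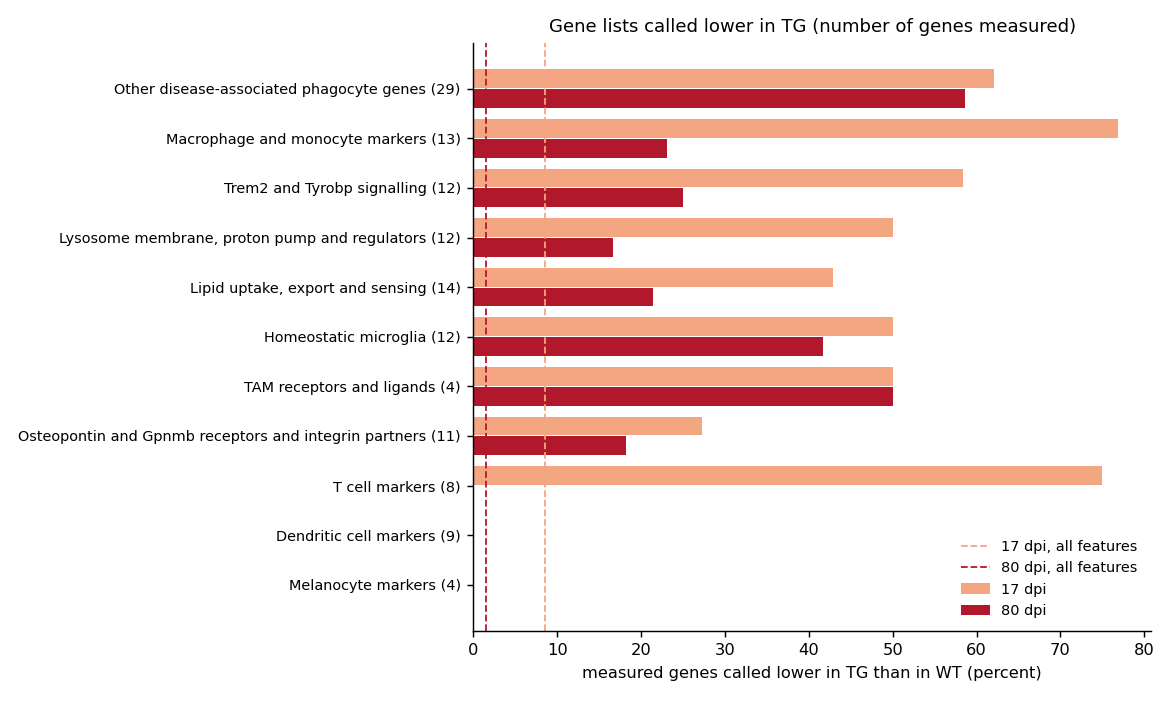
Percent of the measured genes of each list (number in brackets) called lower in TG than in WT in limma at 17 dpi (light) and 80 dpi (dark), with the percent of all features called lower as dashed lines, 8.51 at 17 dpi and 1.47 at 80 dpi. In the list of other disease-associated phagocyte genes 18 of 29 are called at 17 dpi and 17 of 29 at 80 dpi, and T cell markers are called at 17 dpi alone.

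Markers of several cell types moved with the members. Of 13 measured macrophage and monocyte markers, 10 were lower in TG at 17 dpi and 3 at 80 dpi, Ptprc, Fn1 and Lyz2, and in WT over naive 10 were higher at 17 dpi and 4 at 80 dpi. In TG over WT the list median lay between -1.91 and -1.14 on the 3 arrays of 17 dpi and between -0.76 and -0.10 on the 4 of 80 dpi. Ccr2 and Ly6c2, markers of blood-derived monocytes, stood at -2.59 ± 0.46 and -2.54 ± 0.20 at 17 dpi. At 80 dpi they stood at -0.20 ± 0.41 and -0.04 ± 0.18, with Ly6c1 at 0.08 ± 0.18 and Plac8 at 0.04 ± 0.36. Other markers of the list stood lower at 80 dpi. Lyz2 lay at -2.61 ± 0.28, Ptprc at -1.39 ± 0.28, Fn1 at -0.92 ± 0.20, Itgam at -0.69 ± 0.31 and Adgre1 at -0.59 ± 0.17. Of 12 measured markers of homeostatic microglia, 6 were lower and 1 higher in TG at 17 dpi, and 5 were lower at 80 dpi, with array medians between -0.61 and -0.31 at 17 dpi and between -0.44 and -0.19 at 80 dpi. P2ry12 stood at -1.0 ± 0.29 and -0.24 ± 0.25, Cx3cr1 at -0.43 ± 0.12 and -0.57 ± 0.11, and Tmem119 at 0.20 ± 0.20 and -0.07 ± 0.18 at 17 and 80 dpi. Fcrls was the member of this list called in both directions, at 0.55 ± 0.15 at 17 dpi and -1.58 ± 0.14 at 80 dpi. The part of these cells in the members' values was not tested.

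Of 8 measured T cell markers 6 were lower in TG at 17 dpi and 0 at 80 dpi, and the array medians lay between -0.98 and -0.23 and between -0.28 and 0.03. None of 9 dendritic cell markers was called in TG over WT at either time, with array medians between -0.13 and 0.18 at 17 dpi and between -0.08 and 0.05 at 80 dpi. Of 7 measured neutrophil markers 1 was lower, Mmp8, and 2 were higher at 17 dpi, S100a9 and Ngp, and 0 were called at 80 dpi. Of 4 measured B cell markers 1 was lower at 17 dpi, Ms4a1, and none at 80 dpi. With 8.51% of all features called lower at 17 dpi, nothing is read from 1 gene in so short a list. The 4 measured melanocyte genes, a lineage in which Gpnmb is highly expressed, were called at neither time, with array medians between -0.01 and 0.06 at 17 dpi and between -0.01 and 0.03 at 80 dpi.

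Some neural and blood genes were called higher in TG at 17 dpi, where 4.65% of all features were. Of 7 measured myelin genes 2 were higher in TG, Mobp and Opalin, of 8 neuron genes 2, Nefm and Nefh, of 7 astrocyte genes 1, S100b, of 5 vessel genes 1, Pecam1, and of 4 red blood cell genes 3, among them Hba-a1 at 1.72 ± 0.29. Gfap stood at 0.07 ± 0.27, Aldh1l1 at -0.40 ± 0.13 and Cldn5 at 0.01 ± 0.15 at 17 dpi, none of them called. At 80 dpi Nefm was higher and Gfap lower, at -1.08 ± 0.24, and no gene of the myelin, vessel and red blood cell lists was called. Of 6 skeletal muscle genes none was called at 17 or 80 dpi, but the list median was 3.78 and 3.43 on the 2 arrays of TG animal 1-5 at 10 dpi, with that animal in Cy5 on the first and in Cy3 on the second, and 2.36 and 1.80 on those of TG animals 21 and 27 against WT at 80 dpi. TG animal 27 was in Cy3 on that array and in Cy5 over naive TG animal 8, where the muscle median was 2.49. The median was -0.25 for WT animal 14 over naive WT animal 4, and between -0.23 and 0.21 on the naive TG over WT arrays. In title order TG animal 27 would lie far below WT animal 14 and far above naive TG animal 8. The other medians show no such gap between WT animal 14 and the naive animals. All 19 lists had 0 genes called in naive animals and at 10 dpi in the reading used. In title order 4 were lower and 3 higher in naive animals, and 3 lower at 10 dpi.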

How the data were processed

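The table held 1 log2 ratio for each of 44290 features on 20 two-colour arrays of mouse spinal cord. The authors normalized each array by loess within it and by quantiles between arrays with limma, per the labels' design text, and deposited the log2 ratios. Neither the direction nor the base of the log was stated, and base 2 is taken. Scanner signals were not used here, so that signal over background is unknown and the number of arrays limits the precision.

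The platform annotation gave 1 symbol to 32042 features, several to 47 and none to 12201. With limma 3.58.1 in R 4.3.3, a coefficient per group and a dye term were fitted for 43786 features with a value on at least 15 arrays, with 1 common correlation for arrays sharing an animal, estimated at 0. Variances were moderated (prior degrees of freedom 1.92), and p-values were adjusted by Benjamini-Hochberg over all features. A call is an adjusted p under 0.05. The fit was tested on simulated data. A gene with several probes is represented by the one with most values and then the highest root mean square. The p-values rest on the residual spread between arrays, pooled over all groups and moderated over features. With the correlation at 0, arrays that share an animal count as independent. The p-values therefore do not measure the spread between animals within a group.

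The members and lists were chosen with earlier results of these data known. Named were all members, the first 4 measured genes of a list, genes of counts of 5 or fewer, and the 5 genes most like Gpnmb and Trem2. Igf1, Ly6c2, Ly6c1 and Plac8 were chosen after their values were seen. Alternatives were the title order, no dye term, scaled arrays, array weights, probes averaged per gene, complete probes, single comparisons and leaving out each animal. A separate dye term for 10 dpi and the title order for the lists were chosen after seeing the data. Some genes, such as Apoe, Plin2, Lyz2 and Itgam, stand in 2 lists.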

Additional observations from a re-analysis of the deposited data

Results flagged for a closer look

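At 10 dpi the array of TG animal 1-3 over WT animal 10-4 lay far from the 3 others of that comparison for Itgax, at -1.83, for Clec7a, at -3.35, and for the median of the 8 genes, at -1.65. These were 3 of 26 sets of 4 arrays examined, and chance flags about 1 set in 20. All 3 flags fall on the same array, and the median includes the flagged genes. The sets are thus not independent, and nothing is read from this number of flags. Cst7 was below 0 on all 4 arrays of 80 dpi, with a mean of -2.16, and above 0 on all 3 naive arrays, with a mean of 0.08, and this difference was not tested.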

How the results depend on the processing

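Read in title order, as Cy5 over Cy3, the medians of the 8 genes were -0.58 in TG over WT naive, 0.47 at 10 dpi, 0.39 at 17 dpi and 1.16 at 80 dpi, -1.32 and -1.82 in WT 17 and 80 dpi over naive, -0.57 and -0.17 in TG 17 and 80 dpi over naive, and 0.35 in TG 80 over 17 dpi. In that order 0 of the 8 were called in TG over WT at 17 or 80 dpi, in WT 17 or 80 dpi over naive, in TG 17 dpi over naive or in WT 80 over 17 dpi, and these differences turned round: in TG over WT at 17 dpi Gpnmb 0.80, Trem2 0.60, Tyrobp 0.22, Itgax 0.56 and Cst7 0.88, at 80 dpi Gpnmb 2.35, Trem2 1.42, Tyrobp 1.32, Itgax 1.00, Cst7 1.35 and Axl 0.05, in WT 17 dpi over naive Gpnmb -2.84, Trem2 -1.34, Tyrobp -0.85, Itgax -1.30, Cst7 -2.16, Clec7a -1.90 and Axl -1.11, in WT 80 dpi over naive Gpnmb -2.90, Trem2 -1.68, Tyrobp -1.99, Lpl -0.71, Itgax -1.45, Cst7 -2.32 and Axl -1.24, in TG 17 dpi over naive Tyrobp -0.05, and in WT 80 over 17 dpi Gpnmb -0.06. In the reading used, the median at 17 dpi in TG over WT was -1.46 with arrays scaled to 1 spread, -1.68 with array quality weights and -1.57 with probes averaged per gene, which also gave 1.74 in WT 17 dpi over naive, and the median in WT 80 over 17 dpi was 0.56 with scaled arrays. The count called was 0 in TG over WT at 17 dpi with its own 3 arrays alone and 6 with a separate dye term for 10 dpi, Cst7 losing its call. At 80 dpi in TG over WT it was 8 with scaled arrays, array weights or its own arrays alone, Clec7a gaining a call, and 6 without a dye term, Lpl losing one. In WT 80 dpi over naive it was 5 without a dye term, Lpl and Axl losing theirs, and 8 with array weights. In TG 17 dpi over naive it was 0 without a dye term or with scaled arrays, 2 with array weights or averaged probes, and 1 with a separate dye term for 10 dpi, where Lpl was called in place of Tyrobp. With array weights it was 3 in TG 80 dpi over naive and 2 in TG 80 over 17 dpi. In WT 80 over 17 dpi it was 1 without a dye term or with a separate one for 10 dpi. Leaving out each of the 23 animals, the median ranged from -1.91 to -1.52 in TG over WT at 17 dpi, and the count from 6 to 7 in TG over WT at 17 dpi, from 5 to 8 in TG over WT at 80 dpi, from 3 to 8 in WT 17 dpi over naive, from 4 to 8 in WT 80 dpi over naive, from 0 to 2 in TG 17 dpi over naive and from 0 to 3 in WT 80 over 17 dpi. The cause of these changes was not tested. Treating arrays as independent repeated the main fit, because the correlation for a shared animal was estimated at 0, so it is no check on shared animals. Using complete probes changed no call of a member, and every member probe already had a value on all 20 arrays. No paired analysis was possible because a replicate number names other animals in each comparison and each array already sets 2 animals against each other. Without scanner signals, how far a probe lay above background is unknown.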
